A study of Mus musculus with 6 samples.

Results

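Voltage-gated calcium channels, voltage-gated sodium channels and the calcium-release channels of the endoplasmic reticulum were followed as a group of 46 genes, of 31053 genes listed, in nuclei of mouse hippocampus. The genes were taken by symbol alone: every symbol beginning with Cacn, the Scn genes for alpha and beta subunits, Ryr1, Ryr2 and Ryr3, and Itpr1, Itpr2 and Itpr3. They comprised 10 calcium channel alpha1, 4 alpha2delta, 4 beta and 8 gamma genes, 10 sodium channel alpha and 4 beta genes, 3 ryanodine receptors and 3 IP3 receptors. RNA was counted as unique molecular identifiers (UMIs) by droplet-based 3' sequencing of single nuclei in 6 libraries, each from 5 pooled mice. All mice were C57BL/6J males aged 12 weeks, and no group carried a transgene or deletion. HDACi-CFC mice (2 libraries) received CI-994, which blocks histone deacetylases of class I, at 30 mg/kg 1 h before contextual fear conditioning with 2 foot shocks of 0.2 mA. Veh-CFC mice (2 libraries) received the same solvent without CI-994 and the same conditioning. HDACi-Context mice (1 library) received CI-994, and Veh-Context mice (1 library) the solvent, before the same time in the chamber without shock. All mice were killed 1 h after the exposure. The description of the Veh-Context library names the inhibitor while its title and treatment label name vehicle, so it is called the library labelled Veh-Context.

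The 6 libraries held 24508202 to 45570814 UMIs, and 3743 to 5473 nuclei per library passed the quality filters, with a median of 5522 to 6981 UMIs per nucleus. Any pair of libraries shared 1 to 11 barcodes. The 46 channel genes held 0.984% of all UMIs. Nuclei were sorted into types by marker genes, and 22950 of 27766 nuclei fell into 9 types large enough to use: 8642 granule nuclei, 3709 CA1, 2658 CA3, 534 subicular or cortical excitatory, 1318 interneuron, 3191 oligodendrocyte, 573 oligodendrocyte precursor, 1022 astrocyte and 1303 microglia nuclei. The names rest on markers alone and mean granule-like, CA1-like and so on. In granule nuclei the genes that led over other types were the markers Dsp, Glis3, Stxbp6, Plk5 and Prox1. Of these only Plk5 was held out of the sorting. The others were used to pick the nuclei, so their lead was set by the sorting. The tissue label gives hippocampus with the dentate gyrus in brackets, and markers of CA1 and CA3 were present as well. Another 1217 nuclei with markers of more than 1 type were set aside, and no doublet caller was run. Each library is 1 pool of mice, so a p-value measures the spread between pools.

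A voltage-gated calcium channel is built around an alpha1 subunit that forms the pore, with an alpha2delta subunit and a beta subunit that bring it to the membrane and tune its gating. Several gamma genes encode proteins that mainly serve AMPA-type glutamate receptors and are known as TARPs. Voltage-gated sodium channels start the action potential; their alpha subunit is the pore and their beta subunits adjust gating and adhesion. Ryanodine receptors and IP3 receptors release calcium from the endoplasmic reticulum, the first when calcium itself binds, the second when inositol trisphosphate binds. In hippocampal neurons these channels couple electrical activity to transmitter release, plasticity and calcium signals that reach the nucleus.

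In the vehicle libraries the channel genes differed by type. Levels across types are CPM, each gene's UMIs scaled to a common total per type, in the 2 Veh-CFC libraries and the library labelled Veh-Context, given from the lowest to the highest of the 3. They are a description without a test, and each comparison is of 1 gene or 1 subfamily across types. Summed over the alpha1 genes, CA3 nuclei held 3911 to 4044 CPM and granule nuclei 3109 to 3290, against 1857 to 2661 in the other neuronal types. Oligodendrocyte precursors held 1282 to 1296 CPM of alpha1 genes, and oligodendrocytes, astrocytes and microglia 215 to 581. Of the 41 genes tested in at least 1 type, 11 had their highest median in granule nuclei, 9 in CA1, 7 in interneuron and 6 in CA3 nuclei.

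Granule nuclei stood above every other type, with ranges that did not overlap the next type, for 2 pore genes of the L and T classes, for an alpha2delta gene, for 2 release channels and for a sodium channel gene. Cacna1d, the L-type Cav1.3 pore, had 501 to 552 CPM in granule nuclei, against 426 to 475 in CA3. Cacna1h, a T-type pore that opens at low voltage, had 72.6 to 86.5 CPM in granule nuclei, against 23.8 to 30.4 in CA3. Ryr1, best known from skeletal muscle, had 32.9 to 39.2 CPM in granule nuclei, against 8.55 to 11.4 in CA3, and no other type exceeded 25.9. Ryr2 had 1300 to 1530 CPM in granule nuclei, against 1010 to 1230 in CA3. Cacna2d1, the alpha2delta subunit bound by gabapentin, had 717 to 742 CPM in granule nuclei, against 622 to 679 in CA1. Scn3a, a sodium channel gene prominent before birth, had 210 to 228 CPM in granule nuclei, against 145 to 183 in oligodendrocyte precursors and 69.5 to 72.8 in CA3.

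Other types had their own leading genes. Cacna1a, the P/Q-type pore at presynaptic release sites, had 1370 to 1480 CPM in CA3 nuclei, against 784 to 851 in interneurons and 453 to 497 in granule nuclei. Cacnb2 had 2600 to 3090 CPM in CA1 nuclei, against 1290 to 1590 in CA3, and Itpr1 had 451 to 470 CPM in CA1, against 297 to 315 in granule nuclei. Both genes were thus highest in CA1, as was Ryr3 with 1120 to 1270 CPM, against 321 to 344 in granule nuclei. Interneurons led for Scn1a, with 372 to 402 CPM, against 124 to 135 in granule nuclei. Scn1a encodes Nav1.1, the sodium channel that fast-spiking interneurons depend on. Interneurons also led for Cacna2d2, with 108 to 128 CPM, against 1.26 to 1.39 in granule nuclei, and for Scn9a, with 121 to 289 CPM, against 35.7 to 37.4. Cacng4, a TARP gene, had 549 to 714 CPM in oligodendrocyte precursors, against 37.5 to 53.8 in interneurons, the next type. Itpr2, the IP3 receptor of astrocytes, had 381 to 564 CPM in oligodendrocyte precursors, 380 to 421 in microglia and 316 to 340 in astrocytes, with overlapping ranges in precursors and microglia. Neurons of every type had at most 31.9 CPM of Itpr2.

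**Figure D1:**
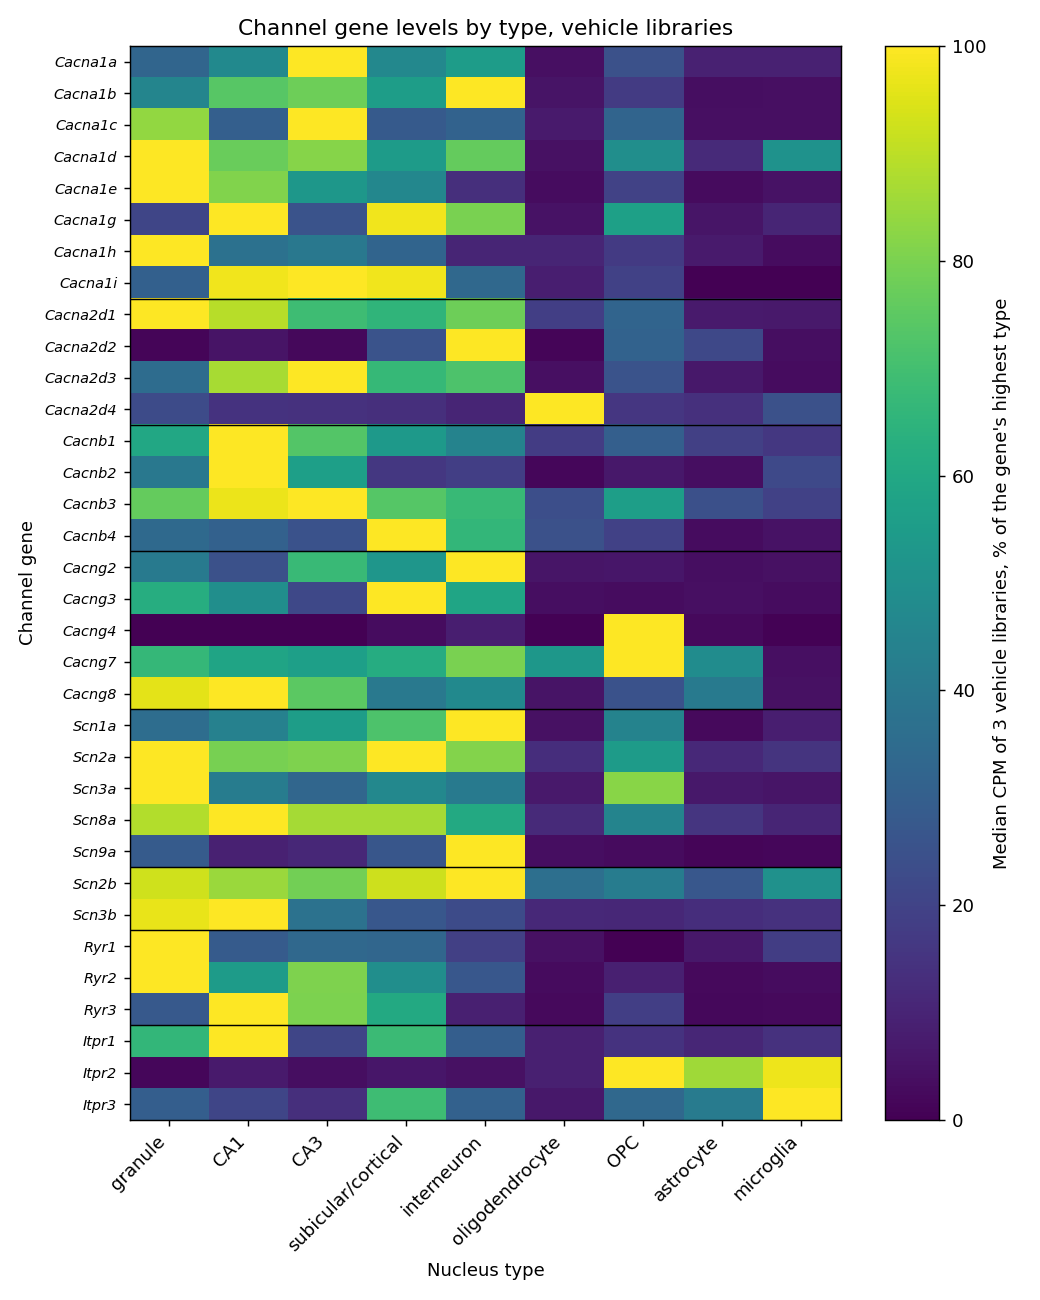
Channel gene levels in the vehicle libraries, by gene (vertical axis, grouped by subfamily with lines between them) and nucleus type (horizontal axis); color is the median CPM of 3 vehicle libraries as a percent of the gene's highest type. Drawn are 34 genes with at least 10 CPM in some type; the bright squares lie mostly in the 5 neuronal types on the left, while Cacna2d4, Cacng4, Cacng7, Itpr2 and Itpr3 are highest in a glial type.

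In granule nuclei CI-994 moved most channel genes that could be tested. Of the 46 genes, 40 had enough UMIs. In HDACi-CFC against Veh-CFC granule nuclei, 23 rose and 5 fell at an adjusted p below 0.05 (edgeR's quasi-likelihood test with Benjamini-Hochberg adjustment over 15861 genes), so 57.5% of the tested channel genes rose and 12.5% fell. Over all genes tested in these nuclei, 23.4% rose and 24.5% fell. The median log2 fold change was 0.46 over the 40 channel genes, against 0.04 over all genes. The channel genes had a median of 3084 UMIs in the 4 libraries and a median gene length of 118.9 kb, against 495 UMIs and 27.9 kb over all genes tested, and the part of depth and length in these shares was not tested. The 5 that fell became 3 when HDACi-CFC replicate 2 or either Veh-CFC library was left out, and 3 with DESeq2. Overlap between the libraries of the 2 groups is given below gene by gene, as a description. Its share over all genes was not counted.

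These directions are relative to the other genes of the same nuclei, because TMM scaling centres the libraries on the bulk of genes. Scaling by total UMIs moved the median of all genes in granule nuclei by -0.363 on the log2 scale and scaling per nucleus by -0.492. Of all genes called in granule nuclei, 48.8% were higher with TMM scaling, 18.9% with scaling by total UMIs and 9.89% per nucleus. Of the channel genes, 15 rose and 8 fell with scaling by total UMIs, and 6 rose and 8 fell per nucleus. Sums scaled by TMM or by total UMIs do not by themselves show the number of nuclei or the RNA per nucleus. Granule nuclei numbered 1118 and 1531 in the HDACi-CFC libraries, against 1028 and 1505 in Veh-CFC. Their median UMIs per nucleus were 5624 and 6541 in HDACi-CFC, against 6284 and 7205 in Veh-CFC. What lies behind the lower UMIs was not tested.

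Among the pore-forming alpha1 genes, 9 were tested in granule nuclei; 6 rose and 1 fell. Cacna1e, the R-type pore Cav2.3, had 1474 and 1442 CPM (TMM-scaled from here on) in the 2 HDACi-CFC libraries, against 771 and 723 in the 2 Veh-CFC libraries. Cacna1c, the L-type pore Cav1.2 that feeds calcium signals to the nucleus, had 1911 and 1727 CPM in HDACi-CFC, against 962 and 946 in Veh-CFC. For both genes each HDACi-CFC library lay above each Veh-CFC library, with log2 fold changes of 0.97 (SE 0.06, adjusted p 2.7e-09) and 0.93 (SE 0.06, adjusted p 5.1e-09). The T-type pores Cacna1g and Cacna1h rose by 1.31 (SE 0.22) and 0.85 (SE 0.10), and Cacna1g stood at 26.2 and 17.7 CPM in HDACi-CFC, against 11.1 and 6.81 in Veh-CFC. Cacna1h had 135.7 and 115.8 CPM in HDACi-CFC, against 76.2 and 63.4 in Veh-CFC. Cacna1a rose by 0.52 (SE 0.08), with 656 and 543 CPM in HDACi-CFC, against 437 and 396 in Veh-CFC. Cacna1d rose by 0.45 (SE 0.06), with 679.6 and 637 CPM, against 486 and 477, and had -0.05 per nucleus. The groups overlapped in none of these 4 genes.

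Cacna1b, the N-type pore of presynaptic terminals, was the alpha1 gene that fell. It had 62.8 and 62.7 CPM in HDACi-CFC granule nuclei, against 95.1 and 93.8 in Veh-CFC. The groups did not overlap, and the log2 fold change was -0.59 (SE 0.09, adjusted p 3.3e-05). Cacna1b and Cacna1e encode closely related pores of the same class and moved in opposite directions. Cacna1f had 0.96 (SE 0.41, adjusted p 0.067) and Cacna1i 0.12 (SE 0.17, adjusted p 0.58), and Cacna1s was not tested.

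**Figure D2:**
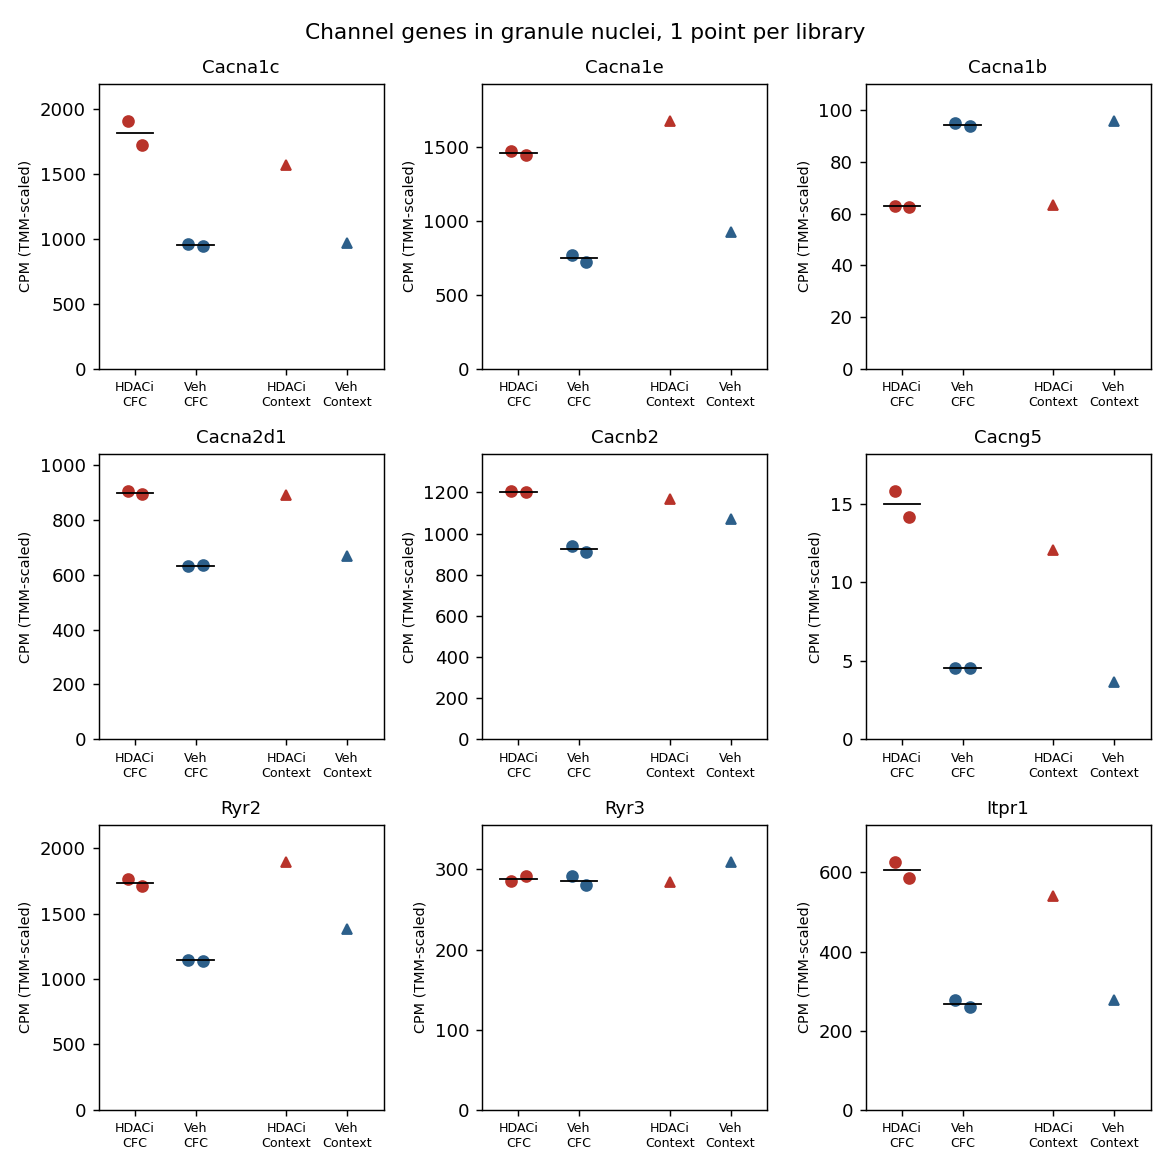
CPM after TMM scaling (vertical axis, from 0) of 9 channel genes in granule nuclei of each library (horizontal axis: HDACi-CFC, Veh-CFC, HDACi-Context, Veh-Context); circles are CFC libraries, triangles Context libraries, red HDACi, blue vehicle, and black lines the mean of 2 libraries. Cacna1b is lower in HDACi libraries (62.8 and 62.7 against 95.1 and 93.8 CPM in CFC), Ryr3 overlaps, and the other 7 are higher in HDACi-CFC.

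Of the auxiliary calcium channel genes in granule nuclei, 3 of 4 alpha2delta genes rose. Cacna2d1 had 905 and 894 CPM in HDACi-CFC, against 631 and 637 in Veh-CFC, and Cacna2d3 had 469 and 437 CPM, against 304 and 315. The groups of each gene did not overlap, and the log2 fold changes were 0.50 (SE 0.06) and 0.55 (SE 0.07). Cacna2d2 had the largest log2 fold change of all channel genes in these nuclei, 1.75 (SE 0.33, adjusted p 0.00041), at low levels of 4.11 and 3.88 CPM in HDACi-CFC, against 1.11 and 1.21 in Veh-CFC. Cacna2d4 had 0.47 (SE 0.20, adjusted p 0.064).

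The beta genes split. Cacnb3 rose by 0.73 (SE 0.13), with 30.9 and 30.6 CPM in HDACi-CFC granule nuclei, against 19.4 and 17.9 in Veh-CFC. Cacnb2 rose by 0.38 (SE 0.06), with 1205 and 1201 CPM, against 939.5 and 912, and had -0.12 per nucleus. Cacnb4 fell by 0.26 (SE 0.07, adjusted p 0.0062), with 196 and 197 CPM in HDACi-CFC, against 240.4 and 229.5 in Veh-CFC, and missed the threshold without Veh-CFC replicate 1 (adjusted p 0.09). In all 3 genes the groups did not overlap. Cacnb1 had 0.21 (SE 0.15, adjusted p 0.26).

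Of 7 gamma genes tested in granule nuclei, 4 rose and 1 fell. Cacng5, a TARP gene, had 15.8 and 14.2 CPM in HDACi-CFC, against 4.54 and 4.54 in Veh-CFC, a log2 fold change of 1.71 (SE 0.19, adjusted p 2.0e-06). Both HDACi-CFC libraries stood well above both Veh-CFC libraries. Cacng2, which encodes stargazin, the founding TARP, fell by 0.38 (SE 0.12, adjusted p 0.015), with 37.3 and 29.8 CPM in HDACi-CFC, against 41.4 and 44.8 in Veh-CFC. It missed the threshold without HDACi-CFC replicate 2 (adjusted p 0.21) and without Veh-CFC replicate 2 (adjusted p 0.13). Cacng7 rose by 0.42 (SE 0.08), with 128 and 119 CPM in HDACi-CFC, against 95.8 and 89.3 in Veh-CFC, and had -0.08 per nucleus. Cacng8, a TARP of hippocampal AMPA receptors, rose by 0.27 (SE 0.10, adjusted p 0.03), with 284 and 222 CPM, against 219 and 199.5, and had -0.10 by total UMIs and -0.23 per nucleus. Cacng8 missed the threshold without HDACi-CFC replicate 1, where its log2 fold change was 0.08, and without Veh-CFC replicate 2, where it was 0.20. Cacng6 had 1.17 (SE 0.33, adjusted p 0.0078) at no more than 3.98 CPM, and missed the threshold when replicate 2 of either group was left out. Cacng3 and Cacng4 had 0.04 and -0.05 and were not called.

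The start regions of 4 of these genes are shown because the genes moved in opposite directions or lie beside each other: Scn1a and Cacna1b fell, and Scn2a and Cacng5 rose. Each is 250 bases before to 50 bases after an annotated start (RefSeq, GRCm38.p6), 5' to 3' on the gene's strand, with every CG pair in capitals. Scn1a lies at chr2:66440788-66441087 (minus strand), Scn2a at chr2:65620519-65620818 (plus strand), Cacna1b at chr2:24763103-24763402 (minus strand) and Cacng5 at chr11:107915006-107915305 (minus strand). RefSeq promoters were matched for 34 of the 46 genes.
Scn1a: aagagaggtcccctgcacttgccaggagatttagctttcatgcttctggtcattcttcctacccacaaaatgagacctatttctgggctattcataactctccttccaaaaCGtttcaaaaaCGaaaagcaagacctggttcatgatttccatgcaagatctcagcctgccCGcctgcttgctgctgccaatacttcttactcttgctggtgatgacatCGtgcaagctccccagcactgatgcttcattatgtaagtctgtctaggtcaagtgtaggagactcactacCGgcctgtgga
Cacna1b: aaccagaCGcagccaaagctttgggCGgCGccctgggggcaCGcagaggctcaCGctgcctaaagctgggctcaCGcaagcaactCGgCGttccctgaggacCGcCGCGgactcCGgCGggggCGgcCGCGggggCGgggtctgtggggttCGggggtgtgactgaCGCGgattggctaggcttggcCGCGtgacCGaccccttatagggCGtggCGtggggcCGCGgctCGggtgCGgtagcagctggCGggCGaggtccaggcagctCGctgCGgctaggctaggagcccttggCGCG
Scn2a: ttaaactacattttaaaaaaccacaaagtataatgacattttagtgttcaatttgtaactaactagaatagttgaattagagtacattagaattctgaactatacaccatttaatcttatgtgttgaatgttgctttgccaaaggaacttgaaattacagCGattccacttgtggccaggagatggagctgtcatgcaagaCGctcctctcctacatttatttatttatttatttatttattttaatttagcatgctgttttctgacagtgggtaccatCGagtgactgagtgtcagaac
Cacng5: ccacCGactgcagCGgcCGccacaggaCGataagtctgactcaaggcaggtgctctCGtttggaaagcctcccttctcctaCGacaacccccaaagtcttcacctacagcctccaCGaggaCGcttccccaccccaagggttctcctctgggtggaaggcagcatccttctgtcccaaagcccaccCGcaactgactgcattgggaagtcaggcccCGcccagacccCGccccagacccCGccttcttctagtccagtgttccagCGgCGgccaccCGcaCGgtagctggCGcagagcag

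The Scn1a window held 5 CG pairs at 47.3% GC and the Scn2a window 3 CG pairs at 33.0% GC, against a median of 7 CG pairs and 52.7% GC over 32851 mouse promoters of that length. The Cacna1b window held 35 CG pairs at 72.3% GC and the Cacng5 window 17 at 63.3% GC. A falling and a rising gene thus stood on each side of the median. Motifs were searched on both strands. The GC-box letters GGGCGG occur in 35.7% of all those promoters, the CRE letters TGACGT in 7.51% and the TATA letters TATAAA in 13.6%. GGGCGG occurred 3 times in the Cacna1b window and 2 times in the Cacng5 window. Neither of the other motifs occurred in the 4 windows, and no motif occurred in those of Scn1a and Scn2a.

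Among sodium channel alpha genes in granule nuclei 3 of 7 rose and 2 fell, and genes of 1 chromosome 2 cluster moved in both directions. In GRCm38 the cluster runs from Scn3a (chr2:65457118-65567627, minus strand) through Scn2a (chr2:65620771-65767447, plus strand), Scn1a (chr2:66270778-66440840, minus strand) and Scn9a (chr2:66480080-66634962, minus strand) to Scn7a (chr2:66673425-66784914, minus strand). Scn1a had 54.1 and 57.1 CPM in HDACi-CFC granule nuclei, against 116.8 and 108.5 in Veh-CFC. Scn2a, which encodes Nav1.2 of axons and excitatory cells, had 506 and 539 CPM in HDACi-CFC, against 302 and 282 in Veh-CFC. Scn3a had 299.8 and 318 CPM in HDACi-CFC, against 185 and 192 in Veh-CFC. Scn1a was lower and Scn2a and Scn3a higher in both HDACi-CFC libraries, with no overlap between groups in any of the 3 genes. The log2 fold changes were -1.01 (SE 0.09, adjusted p 1.5e-07) for Scn1a, 0.84 (SE 0.07, adjusted p 5.9e-08) for Scn2a and 0.71 (SE 0.07, adjusted p 5.6e-07) for Scn3a. Scn9a had -0.13 (SE 0.12, adjusted p 0.40) and Scn7a 0.17 (SE 0.30, adjusted p 0.68).

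Interneurons have the highest Scn1a level, so their markers were set beside its fall. The summed interneuron list of 8 genes had 1353 and 1397 CPM in HDACi-CFC granule nuclei, against 1341 and 1437 in Veh-CFC, and its groups overlapped. Gad1 and Slc32a1 together had 43.9 and 47.0 CPM, against 40.6 and 39.7. The CA3 list had 703 and 731 CPM in HDACi-CFC granule nuclei, against 516 and 541 in Veh-CFC, while the other CA3 markers Iyd and Nectin3 together had 8.8 and 13.1 CPM, against 15.1 and 15.2. The astrocyte list had 165 and 235 CPM in HDACi-CFC, against 126 and 117 in Veh-CFC, and Aqp4 and Aldh1l1 6.50 and 8.93 CPM, against 3.35 and 7.10. Their part in the channel results was not tested. The granule list itself had 6904 and 7159 CPM in HDACi-CFC, against 5103 and 5153 in Veh-CFC. With a stricter margin for the type markers, 23 channel genes rose and 5 fell in granule nuclei. The genes were not all the same, and Itpr2 was not called with it (log2 fold change 0.36, adjusted p 0.29 in edgeR).

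Scn8a, which encodes Nav1.6 of the axon initial segment and the nodes, rose in granule nuclei by 0.61 (SE 0.08, adjusted p 7.2e-06), with 512 and 457 CPM in HDACi-CFC, against 337 and 299 in Veh-CFC. Scn10a, a gene of sensory neurons, had -1.36 (SE 0.44, adjusted p 0.019) at no more than 1.97 CPM and missed the threshold once HDACi-CFC replicate 2 or either Veh-CFC replicate was left out. Of the beta genes 1 of 3 tested rose: Scn3b had 218 and 234 CPM in HDACi-CFC, against 155 and 181 in Veh-CFC, a log2 fold change of 0.43 (SE 0.08, adjusted p 0.00047) that became -0.07 per nucleus. Scn2b had 0.25 (SE 0.12, adjusted p 0.089). Scn4a, Scn4b and Scn11a had too few UMIs to test in granule nuclei.

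Of the release channels, the 3 IP3 receptors rose in granule nuclei and 1 of 3 ryanodine receptors did. Itpr1, the main neuronal IP3 receptor, had 627 and 586 CPM in HDACi-CFC, against 277 and 259.7 in Veh-CFC, a log2 fold change of 1.18 (SE 0.07, adjusted p 1.9e-09). Itpr3 rose by 1.17 (SE 0.32) and Itpr2 by 0.60 (SE 0.23, adjusted p 0.044), both at low levels of 1.35 to 11.02 CPM. Itpr2 missed the threshold without Veh-CFC replicate 2 (log2 fold change 0.19) and Itpr3 without Veh-CFC replicate 1. Itpr2 also missed it with the stricter gate, in DESeq2, by total UMIs and per nucleus, and Itpr3 in DESeq2 and per nucleus. The Itpr1 call was kept in 12 of 12 other settings. Ryr2, the main ryanodine receptor of brain and heart, had 1766 and 1708 CPM in HDACi-CFC, against 1145 and 1140 in Veh-CFC, a log2 fold change of 0.60 (SE 0.05, adjusted p 1.6e-07). Ryr3 overlapped between the groups, with 286 and 292 CPM in HDACi-CFC, against 292 and 281 in Veh-CFC. Its log2 fold change was 0.01 (SE 0.07, adjusted p 0.89), and that of Ryr1 was 0.06 (SE 0.13, adjusted p 0.73).

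The other neuronal types also had more channel genes rising than falling. In CA1 nuclei 21 of 38 tested channel genes rose and 1 fell, against 18.7% higher and 19.5% lower over all genes tested. In CA3 nuclei 19 of 38 rose and none fell, against 17.7% and 15.7%, and in interneurons 19 of 34 rose and none fell, against 16.5% and 11.5%. DESeq2 called 0 channel genes lower in these 3 types, and in edgeR 0 were lower at an unadjusted p below 0.05 in CA3 nuclei and interneurons. In CA3 nuclei the interneuron list had 395 and 531 CPM in HDACi-CFC, against 276 and 104 in Veh-CFC, and Gad1 and Slc32a1 20.1 and 23.0 CPM, against 15.3 and 6.42. In interneurons the CA3 list had 1617 and 1675 CPM in HDACi-CFC, against 1132 and 1205 in Veh-CFC, and Iyd and Nectin3 31.8 and 17.8 CPM, against 28.1 and 32.7. The subicular or cortical list had 515 and 533 CPM in HDACi-CFC interneurons, against 310 and 377 in Veh-CFC, while Nts and Tle4 had 47.3 and 65.4 CPM, against 86.1 and 78.0. The part of these markers in the channel results was not tested. The number of channel genes that rose in DESeq2 was 17 in CA1, 12 in CA3 and 10 in interneuron nuclei. In subicular or cortical excitatory nuclei, with as few as 31 nuclei in a library, 6 of 32 rose and none fell, against 5.58% and 2.5%. No subicular gene was lower at an unadjusted p below 0.05 in edgeR, or in DESeq2. The 6 became 0 without Veh-CFC replicate 1 and 1 without Veh-CFC replicate 2. The subfamilies differed. Of the sodium alpha genes 1 of 7 rose and 1 fell in CA1 nuclei, 2 of 7 rose in CA3, 1 of 6 in interneurons and 0 of 5 in subicular or cortical excitatory nuclei. Of the sodium beta genes 1 of 3 rose in CA1 and 0 of 3 in each of the others. Of the calcium alpha1 genes 6 of 8 rose in CA1 and in CA3, 7 of 8 in interneurons and 2 of 8 in subicular or cortical excitatory nuclei. Scaling by total UMIs or per nucleus moved the median of all genes in CA1, CA3 and interneuron nuclei by -0.256 to -0.474.

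**Figure D3:**
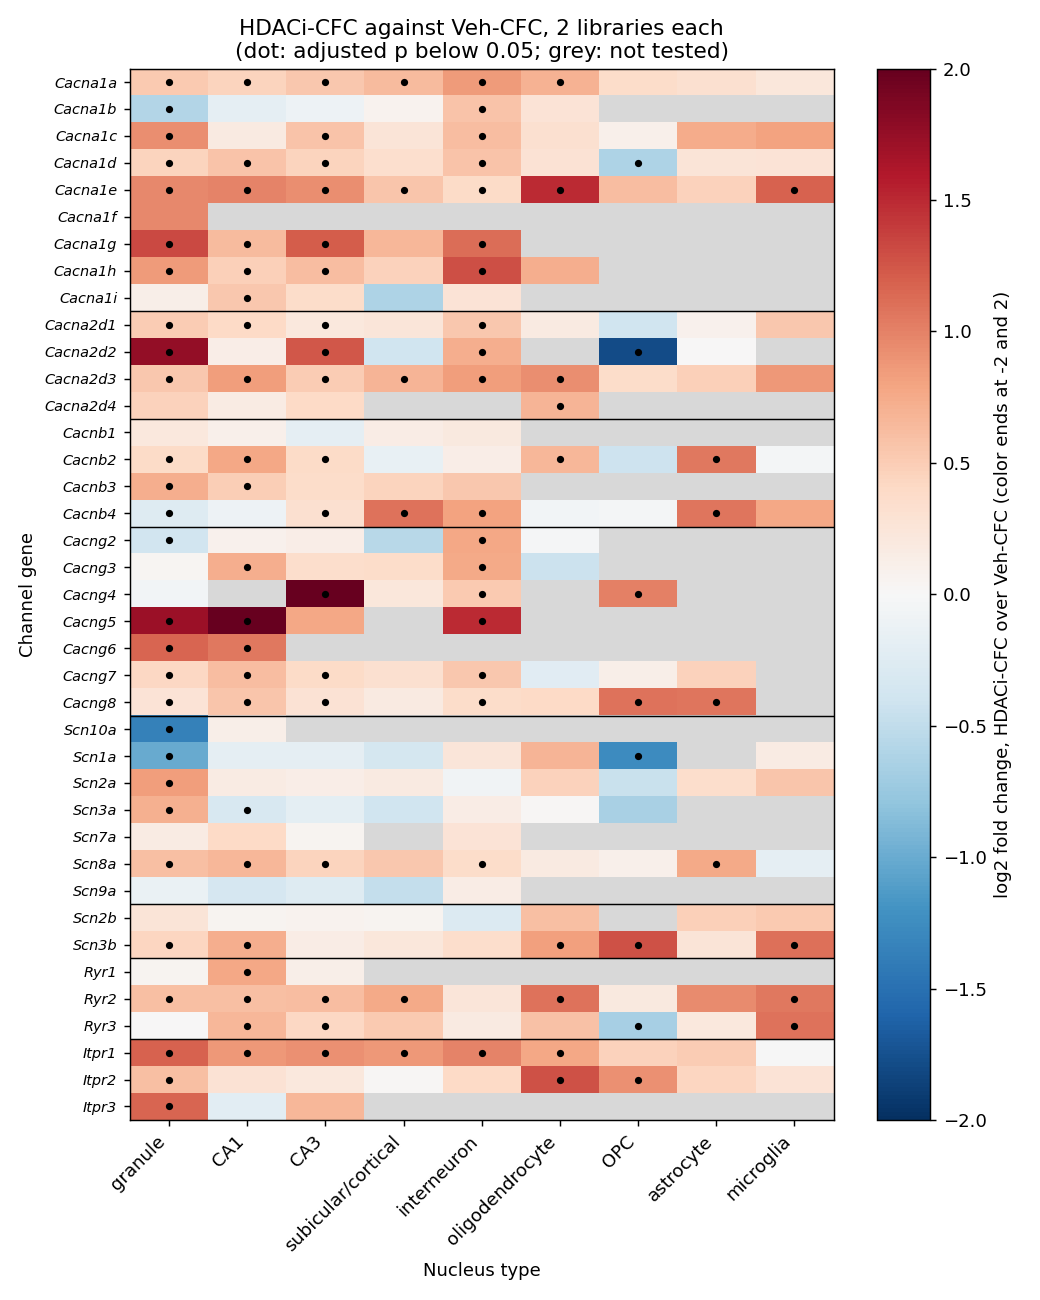
Log2 fold change of HDACi-CFC over Veh-CFC (color, red higher and blue lower in HDACi-CFC, ending at -2 and 2) for 39 channel genes tested in at least 1 type (vertical axis, by subfamily) in 9 nucleus types (horizontal axis). Dots mark an adjusted p below 0.05 and grey squares were not tested; red fills most neuronal squares, while Cacna1b, Cacnb4, Cacng2, Scn1a and Scn10a are blue in granule nuclei.

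Some channel genes rose across types. Cacna1e rose in 7 of 9 types, and Cacna1a, Cacna2d3, Cacng8, Itpr1 and Ryr2 in 6 types each. The Cacna1e call was kept in 12 of 12 other settings in granule, CA1 and oligodendrocyte nuclei, 11 in CA3 and 9 in microglia. It was kept in 4 of 12 in interneurons and in subicular or cortical excitatory nuclei. The Cacng8 call was kept in 7 to 11 of 12 in granule, CA1, astrocyte and precursor nuclei, and in 4 of 12 in CA3 nuclei and interneurons. In CA1 nuclei Cacna1e had 1213 and 1230 CPM in HDACi-CFC, against 629.8 and 596 in Veh-CFC (log2 fold change 1.00, SE 0.07, adjusted p 1.4e-09). In interneurons it had 119.5 and 135 CPM, against 92.6 and 103 (log2 fold change 0.38, SE 0.14, adjusted p 0.033), and -0.10 per nucleus. The interneuron value missed the threshold when either Veh-CFC library or HDACi-CFC replicate 2 was left out. Neither pair of groups overlapped. Itpr1 in CA1 nuclei had 761 and 742 CPM in HDACi-CFC, against 417 and 405 in Veh-CFC (log2 fold change 0.87, SE 0.07). Of 35 channel genes tested in at least 4 types 15 rose in 4 or more, where 13.2% of all such genes did. Of 41 tested in any type 36 changed in at least 1, where 67.6% of all genes did.

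For 6 genes the drug effect in granule nuclei differed from that in each of CA1, CA3 and interneuron nuclei: Scn1a, Scn2a, Scn3a, Cacna1b, Cacna1c and Cacng2. The difference was tested as an interaction of drug and type in the 4 CFC libraries. Against CA1 nuclei 19 of 41 channel genes differed, 8 of them higher in granule nuclei, where 15.5% of all genes differed. Against CA3 nuclei 14 of 41 differed (15.6% of all genes), and against interneurons 12 of 40 (11.9% of all genes). Of these 45 differences, 21 passed the threshold in each of the 6 other settings tried, and 26 did so without Veh-CFC replicate 2. Scn3a against interneurons passed it in 3 of those 6 settings, Cacna1b against CA1 in 4, and Cacng2 against CA1 and CA3 in 4 each.

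The Scn1a effect was the lowest in granule nuclei among these 4 types. In CA1 nuclei it had 131 and 125 CPM in HDACi-CFC, against 146 and 143 in Veh-CFC (log2 fold change -0.18, SE 0.09, adjusted p 0.12). In interneurons it had 383 and 394 CPM, against 328 and 331 (0.24, SE 0.11, adjusted p 0.11). The CPM groups did not overlap in either type, though neither difference passed the threshold. Granule minus other type, the effect differed by -0.76 (SE 0.09) for CA1, -0.76 (SE 0.10) for CA3 and -1.16 (SE 0.12) for interneurons on the log2 scale, with adjusted p of 1.1e-08, 1.6e-05 and 1.4e-09.

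Scn2a and Scn3a had the reverse contrast. Scn2a in CA1 nuclei had 256 and 275 CPM in HDACi-CFC, against 241 and 233 in Veh-CFC (log2 fold change 0.17, SE 0.08, adjusted p 0.12), and the granule effect differed by 0.74 (SE 0.07, adjusted p 3.0e-11). Scn3a fell in CA1 nuclei, with 60.7 and 63.8 CPM in HDACi-CFC, against 81.3 and 74.9 in Veh-CFC (log2 fold change -0.32, SE 0.10, adjusted p 0.02). Its effect differed between granule and CA1 nuclei by 1.09 (SE 0.09, adjusted p 1.6e-12). Scn3a was thus higher with the drug in granule nuclei and lower in CA1 nuclei, without overlap of groups in either. The CA1 fall of Scn3a missed the threshold without Veh-CFC replicate 1 (adjusted p 0.17), where 0 channel genes were called lower in CA1; without HDACi-CFC replicate 1 there were 2.

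**Figure D4:**
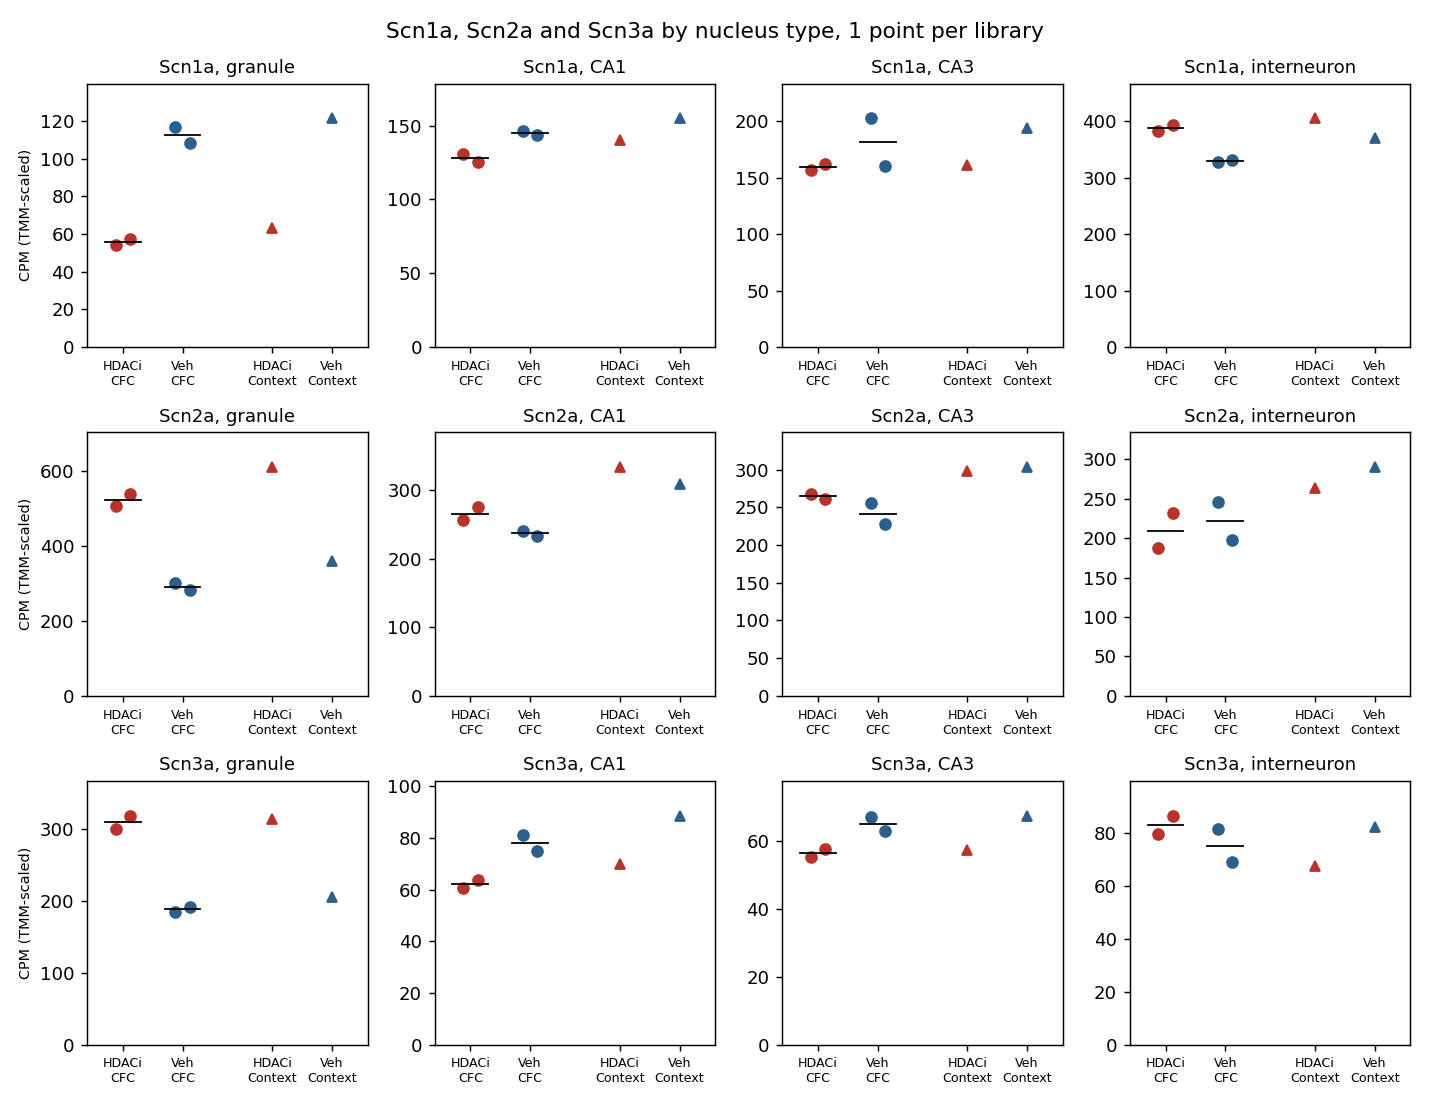
CPM after TMM scaling (vertical axes, each from 0) of Scn1a, Scn2a and Scn3a (from top to bottom) in granule, CA1, CA3 and interneuron nuclei (from left to right), 1 point per library. Circles are CFC and triangles Context libraries, red HDACi and blue vehicle, and black lines the mean of 2 libraries; in granule nuclei Scn1a is lower (54.1 and 57.1 against 116.8 and 108.5 CPM) and Scn2a and Scn3a are higher in HDACi-CFC.

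Among calcium channel genes, Cacna1b fell in granule nuclei and rose in interneurons, where it had 331 and 277 CPM in HDACi-CFC, against 198.5 and 209 in Veh-CFC (log2 fold change 0.57, SE 0.12, adjusted p 0.0004). The difference between the 2 effects was -1.06 (SE 0.13, adjusted p 3.7e-08). Cacnb4 had the same contrast, with 760.4 and 741 CPM in HDACi-CFC interneurons, against 450.3 and 411 in Veh-CFC (log2 fold change 0.80, SE 0.11), a difference of -0.98 (SE 0.12). Cacng2 rose in interneurons to 199 and 192 CPM in HDACi-CFC, against 96.7 and 130.5 in Veh-CFC (log2 fold change 0.77, SE 0.13), a difference of -1.07 (SE 0.15). In each of these 3 genes interneuron groups did not overlap and stood in the opposite order to granule groups. The interneuron list itself had 17650 and 19000 CPM in HDACi-CFC interneurons, against 14580 and 13530 in Veh-CFC. Gad1 and Slc32a1 together had 755 and 699 CPM there, against 558 and 539. In subicular or cortical excitatory nuclei Cacnb4 had 1432 and 1450 CPM in HDACi-CFC, against 640.4 and 721 in Veh-CFC (log2 fold change 1.08, SE 0.15, adjusted p 0.00099). The subicular or cortical list had 3614 and 4006 CPM in these nuclei in HDACi-CFC, against 3112 and 3143 in Veh-CFC. Nts and Tle4 together had 380 and 442 CPM, against 231 and 233. The part of the markers of each type in these rises was not tested.

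Cacna1c rose more in granule nuclei than in CA1, where it had 392 and 384 CPM in HDACi-CFC, against 364 and 319 in Veh-CFC (log2 fold change 0.19, SE 0.08, adjusted p 0.082); the difference was 0.80 (SE 0.06, adjusted p 1.4e-12). In CA3 nuclei it had 1918 and 1654 CPM in HDACi-CFC, against 1193 and 1217 in Veh-CFC (0.57, SE 0.08), and the granule effect was larger by 0.45 (SE 0.05). Its difference from interneurons, 0.40 (SE 0.12, adjusted p 0.024), passed the threshold in 1 of the 6 other settings. Ryr3 had the reverse contrast: in CA1 nuclei it had 1635 and 1584 CPM in HDACi-CFC, against 993 and 1029 in Veh-CFC (log2 fold change 0.67, SE 0.06, adjusted p 9.8e-08). Its granule effect differed from that in CA1 by -0.59 (SE 0.06) and from that in CA3 by -0.33 (SE 0.06). Cacnb2, highest in CA1, rose there by 0.78 (SE 0.05), with 3958 and 3994 CPM in HDACi-CFC, against 2360 and 2271 in Veh-CFC, and its granule effect differed by -0.34 (SE 0.05).

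Glial nuclei gave fewer tests. In oligodendrocytes 10 of 26 channel genes rose and none fell, where 19.9% of all genes rose and 17.3% fell; 6 rose without Veh-CFC replicate 2. DESeq2 called 4 higher and 0 lower, and in edgeR 0 were lower at an unadjusted p below 0.05. Itpr2 had 65.8 and 67.5 CPM in HDACi-CFC oligodendrocytes, against 24.9 and 29.7 in Veh-CFC (log2 fold change 1.27, SE 0.21, adjusted p 0.00016). Cacna1e, a gene with 827 to 1030 CPM in vehicle granule nuclei, had 56.2 and 79.5 CPM in HDACi-CFC oligodendrocytes, against 28.2 and 22.3 in Veh-CFC (1.49, SE 0.23). Summed markers of other types are set beside these values. The granule list of 8 genes had 4850 and 5143 CPM in HDACi-CFC oligodendrocytes, against 3533 and 3545 in Veh-CFC, while the other granule markers Lct, Tdo2 and Plk5 together had 13.5 and 12.7 CPM, against 12.8 and 13.1. The CA1 list had 337 and 312 CPM in HDACi-CFC, against 461 and 543 in Veh-CFC, and the other CA1 markers Wfs1, Pou3f1 and Spink8 106.5 and 112 CPM, against 88.0 and 83.1. The CA3 list had 961 and 1262 CPM in HDACi-CFC, against 919 and 816 in Veh-CFC, and the other CA3 markers Iyd and Nectin3 25.7 and 26.7 CPM, against 42.2 and 49.1. For CA1 and CA3 the list and the other markers thus stood in opposite orders. Their part in the results was not tested.

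In oligodendrocyte precursors 5 of 22 channel genes rose and 4 fell, where 15.2% of all genes rose and 10.3% fell. Cacng4, highest in this type, had 1176 and 1195 CPM in HDACi-CFC, against 539 and 633 in Veh-CFC (log2 fold change 1.01, SE 0.13, adjusted p 5.0e-05). Itpr2 had 667 and 637 CPM, against 353 and 338 (0.91, SE 0.14, adjusted p 0.00033). For both genes the HDACi-CFC libraries lay above the Veh-CFC libraries. Scn1a fell here too, with 65.9 and 59.7 CPM in HDACi-CFC, against 161 and 140.0 in Veh-CFC (-1.26, SE 0.25, adjusted p 0.0024). Ryr3, Cacna1d and Cacna2d2 fell by 0.66 (SE 0.21), 0.62 (SE 0.20) and 1.78 (SE 0.51), and Scn3b and Cacng8 rose by 1.28 and 1.08. DESeq2 called 2 higher and 1 lower. The 5 that rose became 3 without Veh-CFC replicate 2. The 4 that fell became 1 without Veh-CFC replicate 1 and 2 when either HDACi-CFC library was left out. The precursor list itself had 10110 and 10490 CPM in HDACi-CFC precursors, against 8324 and 8439 in Veh-CFC. The other precursor markers Cspg4 and Neu4 together had 958 and 968 CPM, against 606 and 716. The astrocyte list had 2070 and 1741 CPM in HDACi-CFC precursors, against 880.2 and 922 in Veh-CFC, and the subicular or cortical list 549 and 459 CPM, against 655 and 796. The part of these markers in the channel results, the Cacng4 rise among them, was not tested.

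In astrocytes 4 of 20 channel genes rose and none fell, where 15.8% of all genes rose and 10.7% fell. Cacng8 had 213 and 172 CPM in HDACi-CFC astrocytes, against 92.4 and 88.0 in Veh-CFC (log2 fold change 1.08, SE 0.21, adjusted p 0.0013). Cacnb2, Cacnb4 and Scn8a rose by 1.05 (SE 0.29), 1.07 (SE 0.37) and 0.76 (SE 0.26). Left out, Veh-CFC replicate 2 made the 4 into 1 and HDACi-CFC replicate 2 into 2; the replicate number as a block made them 7. In microglia 4 of 18 rose and none fell, where 20.2% rose and 16.7% fell: Cacna1e, Ryr2, Ryr3 and Scn3b. Ryr2 had 72.6 and 98.6 CPM in HDACi-CFC microglia, against 40.5 and 43.7 in Veh-CFC (1.05, SE 0.33). In vehicle granule nuclei Ryr2 had 1300 to 1530 CPM. The granule list had 2100 and 2026 CPM in HDACi-CFC microglia, against 1493 and 1545 in Veh-CFC. Lct, Tdo2 and Plk5 together had 11.25 and 19.46 CPM, against 12.79 and 26.23. In astrocytes the granule list had 877 and 1091 CPM in HDACi-CFC, against 1163 and 1076 in Veh-CFC. The part of these markers was not tested. The microglial 4 became 2 when Veh-CFC replicate 1 or HDACi-CFC replicate 2 was left out, and 1 without Veh-CFC replicate 2. DESeq2 called 1 channel gene higher in astrocytes, 0 higher in microglia and 0 lower in both, and in edgeR 0 were lower at an unadjusted p below 0.05 in both.

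The Context pair gave the drug comparison once more in other mice, without shock. With 1 library per group there is no test, and log2 ratios of HDACi-Context over Veh-Context carry 95% counting intervals that cover counting error alone. In granule nuclei 35 channel genes had at least 100 UMIs in the pair; 12 lay past 1.5-fold higher and 2 past 1.5-fold lower, where 15.3% and 19.2% of all genes did. Their median log2 ratio was 0.42, against 0.01 over all genes. Of the 28 channel genes called in CFC, 27 had the same sign in Context, and for 26 the interval lay off 0 on that side. Cacng6 had the other sign, -0.18 (interval -0.85 to 0.47). Among genes called in CFC with 100 UMIs in the Context pair, 25 of 25 channel genes and 97.3% of all genes kept the sign.

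Scn1a had 63.4 CPM in HDACi-Context granule nuclei, against 121.5 in Veh-Context (log2 ratio -0.94, interval -1.06 to -0.82). Scn2a had 611 CPM, against 359 (0.77, interval 0.72 to 0.82), and Scn3a 314 CPM, against 205 (0.62, interval 0.55 to 0.69). The 3 sodium genes of the cluster thus stood in the same order as after conditioning. Itpr1 had 541 CPM in HDACi-Context, against 276.5 in Veh-Context (0.97, interval 0.91 to 1.03), and Cacng5 12.1 CPM, against 3.67 (1.72, interval 1.25 to 2.21). Cacna1b had 63.4 CPM, against 95.9 (-0.60, interval -0.72 to -0.47).

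**Figure D5:**
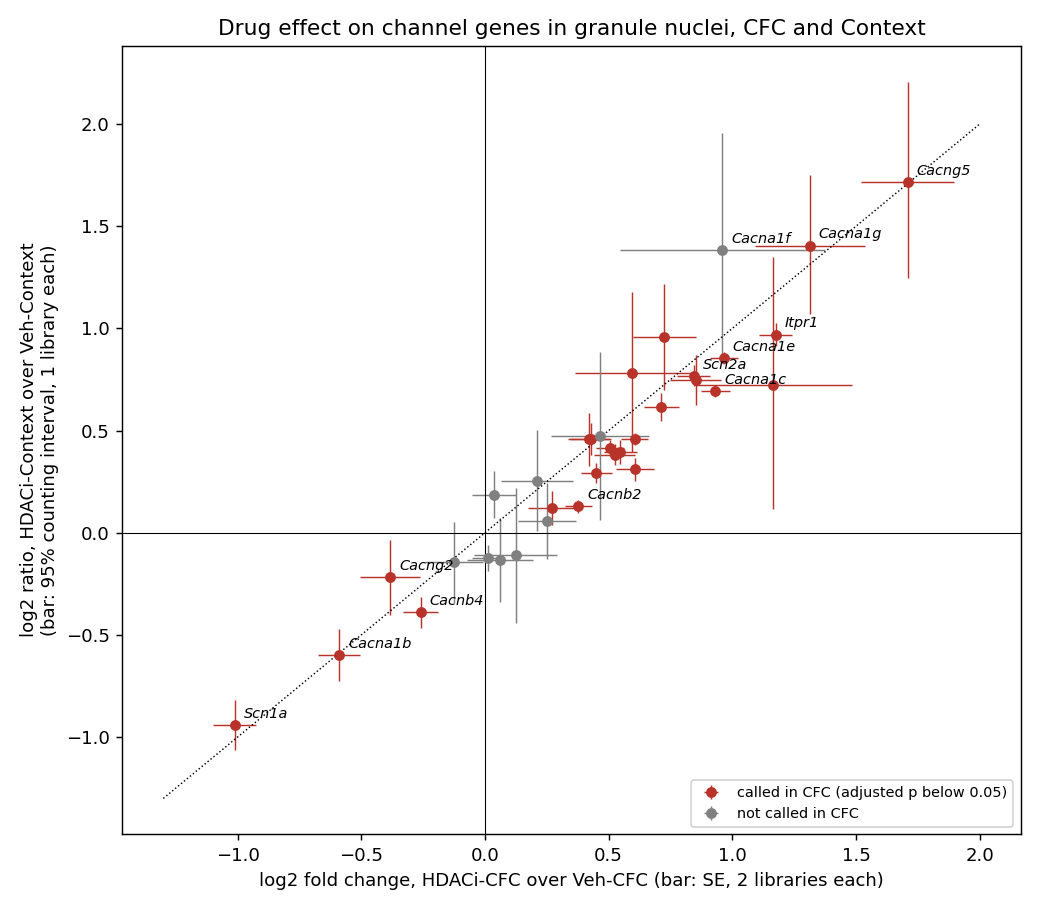
Drug effect on 34 channel genes in granule nuclei: log2 fold change HDACi-CFC over Veh-CFC (horizontal axis, bars are SE, 2 libraries each) against log2 ratio HDACi-Context over Veh-Context (vertical axis, bars are 95% counting intervals, 1 library each); red genes passed an adjusted p below 0.05 in CFC, and the dotted line marks equal values. Red genes lie in the upper right or lower left, from Scn1a at -1.01 and -0.94 to Cacng5 at 1.71 and 1.72.

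No channel gene passed the test for a different drug effect in Context than in CFC in granule nuclei: edgeR called 0 of 40 at an adjusted p below 0.05, the lowest adjusted p was 0.42 for Cacng6, and 4 had an unadjusted p below 0.05. Each Context group is 1 library, so the spread in this test comes from the CFC libraries alone and the Context libraries are assumed to vary like them. Over all genes 0.322% were called. For Cacnb2, 1 of the 4, the log2 ratio was 0.13 in Context (1169 CPM in HDACi-Context, against 1069 in Veh-Context), and the effect differed by -0.25 (SE 0.09, Context minus CFC). The Context libraries were processed with Cell Ranger 3.0.2 and the CFC libraries with 3.0.1, so exposure and processing batch cannot be told apart. Cacna1f had 7.64 CPM in HDACi-Context and 2.92 in Veh-Context, against 1.97 and 1.73 CPM in HDACi-CFC and 0.86 and 0.98 in Veh-CFC. Both Context libraries lay above the 4 CFC libraries for this gene of the retinal L-type pore.

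In other types the Context pair stood closer to 0. The median log2 ratio over channel genes with at least 100 UMIs was 0.30 in CA1 nuclei, 0.27 in CA3 and 0.29 in interneurons, against 0.02, 0.01 and 0.07 over all genes. It was 0.33 in subicular or cortical excitatory nuclei, 0.09 in oligodendrocytes and -0.12 in precursors, against 0.12, 0.18 and 0.40. In astrocytes and microglia, with 3 such genes each, it was 0.25 and -0.15, against 0.33 and 0.31. Past 1.5-fold higher lay 7 of 31 in CA1 (11.5% of all genes), 4 of 32 in CA3 (9.89%) and 5 of 27 in interneurons (12%). Past 1.5-fold lower lay 1 in CA1 (13.8%), 0 in CA3 (11.9%) and 0 in interneurons (10.7%). Of the genes called in CFC, 22 of 22 in CA1, 17 of 19 in CA3 and 18 of 19 in interneurons had the same sign. With 100 UMIs in the pair these were 20 of 20, 15 of 16 and 16 of 17, where 95.8%, 94.7% and 95.6% of all genes called in CFC kept the sign. Cacnb4 in CA3, which rose in CFC but missed the threshold when replicate 2 of either group was left out, had -0.13 in Context with an interval of -0.25 to -0.01. In oligodendrocytes 8 of 10 kept the sign, with 3 intervals off 0, and Cacnb2 and Ryr2 had the other sign. With 100 UMIs in the pair 4 of 6 kept it, where 96.6% of all genes called in CFC did. The sign was kept by 6 of 6 in subicular or cortical excitatory nuclei, 9 of 9 in precursors, 2 of 4 in astrocytes and 3 of 4 in microglia. Cacna1e was the gene that did not keep it in microglia and in interneurons, and Cacnb2 and Scn8a did not in astrocytes. None of these intervals lay off 0. In oligodendrocytes, of 12 genes 1 lay past 1.5-fold higher and 0 past 1.5-fold lower, against 23.2% and 13.1% of all genes. In subicular or cortical excitatory nuclei 6 of 25 lay past 1.5-fold higher and 1 past 1.5-fold lower, against 15% and 7.95% of all genes. In oligodendrocyte precursors 2 of 10 lay on each side, against 39% higher and 6.42% lower over all genes. Cacng4 in oligodendrocyte precursors had 975 CPM in HDACi-Context, against 526 in Veh-Context (0.89, interval 0.61 to 1.17).

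Genes that work with these channels were looked up in granule nuclei as well, where 23.4% of all genes rose and 24.5% fell. Of 12 genes that anchor or modulate sodium channels 8 rose and 1 fell: Ank3, which encodes the ankyrin G scaffold of the axon initial segment, rose by 1.02 (SE 0.06), Fgf13 rose by 0.85 (SE 0.08), and Nalcn, the sodium leak channel, fell by 0.45 (SE 0.07). Of 15 calcium pumps and exchangers tested 10 rose and 4 fell, with the plasma membrane pump Atp2b2 at 0.95 (SE 0.07), the mitochondrial uniporter Mcu at 0.93 (SE 0.07), its regulator Micu2 at -1.12 (SE 0.10) and the exchanger Slc8a3 at -0.44 (SE 0.12). Of 13 genes of store-operated entry and membrane junctions 5 rose and 1 fell: Jph1 rose by 1.13 (SE 0.06) and Homer3 by 0.75 (SE 0.15), and Stim1, the calcium sensor of the store, fell by 0.99 (SE 0.09). Of 13 genes of calcium channel partners 7 rose and none fell, among them Stac2 (1.12, SE 0.27). The medians of the 4 lists were 0.36, 0.44, 0.09 and 0.28, against 0.04 over all genes, with all adjusted p below 0.05 for the changes named.

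Counting of overlapping genes could affect some values. None of the 46 genes overlapped a counted gene on its own strand in GENCODE M21, and 19 overlapped one on the other strand, among them Cacna1c, Cacna1d, Ryr3 and Scn3a, and Scn1a, Scn2a, Cacna1b and Cacna1e overlapped none. Whether strand and introns were used in counting is not given in the sources used here.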

How the data were processed

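Single-nucleus RNA was counted in 6 libraries of 5 pooled mice each. The deposited files hold raw UMI counts per gene and nucleus made with Cell Ranger 3.0.1 (CFC) or 3.0.2 (Context), per the file headers. The mm10 build and Seurat 4.0.3 are named in the submitters' processing notes, and how introns and strand were counted is not given in the sources used here. Actinomycin D was present while nuclei were prepared, per the labels' protocols.

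Of 30323 nuclei, 27766 passed a minimum of 500 genes and a maximum of 5% mitochondrial UMIs. Each was given the type with the highest marker score, if that score reached 0.5 of the type's 99.5th percentile, at least 3 markers were seen, and the next type lay at least 0.1 lower (0.3 in the stricter version). Types with under 30 nuclei in any library were not used. The barcodes in the files are called nuclei, so free RNA could not be measured, and its part was not tested.

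UMIs were summed per library and type and tested with edgeR 4.0.16 in R 4.3.3 (quasi-likelihood, TMM scaling, filterByExpr, Benjamini-Hochberg adjustment over all genes of a type), on the 4 CFC libraries without a block. Drug-by-type and drug-by-exposure interactions used the same tool. Standard errors of the fold changes and of the interaction differences were derived from the F statistic. The Context pair, with 1 library each, was described by ratios with exact binomial 95% intervals, which cover counting error alone. Vehicle levels and summed markers are plain CPM, and channel gene values by library in the drug comparisons are TMM-scaled CPM. The tests were tried on simulated counts first. The alternatives were scaling by total UMIs or per nucleus, DESeq2 1.42.0 and its size factors, no filter, all 6 libraries, a replicate block, the stricter gate and leaving out each library. For granule nuclei, a library is named beside a gene where leaving it out lost the call. Any channel gene could be named. Values in every library are given for most called genes with the highest and lowest fold changes of each subfamily in granule nuclei, up to 2 each way. They are also given, in at least 1 type, for genes called alike in at least 4 types or in opposite ways in different types. In granule nuclei Scn10a, Cacng6, Itpr2 and Itpr3, at low levels, have an upper bound or a range instead. In precursors Cacna1d, Ryr3 and Cacna2d2 have fold changes alone. Of the partner lists, the 2 highest and 2 lowest called genes are named. The members and gene lists were chosen with earlier results of these data known. Python 3.11.15, numpy 2.4.6, pandas 2.3.3, scipy 1.17.1 and matplotlib 3.10.9 were used. Values of some genes that the counts include are not reported here, in the text or the figures.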

Additional observations from a re-analysis of the deposited data

Results flagged for a closer look

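The response to CI-994 differed between granule nuclei and another neuronal type for 45 gene and type pairs at an adjusted p below 0.05 in edgeR's interaction test. Values are log2 differences of the HDACi-CFC over Veh-CFC effect, granule minus the other type, and are given for 43 of the 45 pairs.

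Against CA1 nuclei, the effect was higher in granule nuclei by 1.69 for Cacna2d2, 1.09 for Scn3a, 0.80 for Cacna1c, 0.74 for Scn2a, 0.73 for Cacna1g, 0.42 for Cacna1h and 0.36 for Itpr1. It was lower in granule nuclei, with differences of -1.97 for Cacng4, -0.76 for Scn1a, -0.66 for Ryr1, -0.61 for Cacng3, -0.59 for Ryr3, -0.44 for Cacng2, -0.34 for Cacnb2, -0.33 for Cacna1b, -0.24 for Scn3b, -0.23 for Cacna2d3 and -0.21 for Cacng8.

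Against CA3 nuclei, the effect was higher in granule nuclei by 0.99 for Scn3a, 0.79 for Scn2a, 0.45 for Cacna1c, 0.37 for Cacna2d1, 0.36 for Scn3b, 0.34 for Itpr1 and 0.25 for Scn8a. It was lower in granule nuclei, with differences of -2.07 for Cacng4, -0.76 for Scn1a, -0.51 for Cacnb4, -0.44 for Cacng2, -0.40 for Cacna1b and -0.33 for Ryr3.

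Against interneurons, the effect was higher in granule nuclei by 1.09 for Cacna2d2, 1.00 for Scn2a, 0.67 for Cacna1e, 0.65 for Scn3a, 0.60 for Scn2b, 0.44 for Ryr2 and 0.40 for Cacna1c. It was lower in granule nuclei, with differences of -1.16 for Scn1a, -1.07 for Cacng2, -1.06 for Cacna1b, -0.98 for Cacnb4 and -0.63 for Cacng3.

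The genes with the largest differences had few UMIs in granule nuclei. Cacng4 had at most 2.12 CPM in granule nuclei of any CFC library, and Cacna2d2 at most 4.11. Cacna2d2 and Scn2b against interneurons passed the threshold in 0 of 6 other settings, and Cacna1c against interneurons in 1 of 6. Scn1a and Scn2a passed it in all 6 against each of the 3 types.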

How the results depend on the processing

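With scaling by total UMIs, 15 channel genes rose and 8 fell in granule nuclei (23 and 5 with TMM scaling), 12 and 6 in CA1 nuclei (21 and 1), 9 and 5 in CA3 nuclei (19 and 0), 3 and 1 in subicular or cortical excitatory nuclei (6 and 0), 11 and 2 in interneurons (19 and 0) and 4 and 2 in oligodendrocytes (10 and 0). In precursors 8 fell (4 with TMM scaling), in astrocytes 1 rose (4) and in microglia 2 rose (4). Scaled per nucleus, 6 rose and 8 fell in granule nuclei, 2 and 5 in CA1 nuclei, 2 and 2 in CA3 nuclei and 2 and 2 in oligodendrocytes, and 0 rose in subicular or cortical excitatory nuclei, interneurons, precursors, astrocytes or microglia. Of all genes called, 48.9% to 69.1% were higher in the 8 types other than granule with TMM scaling, 14.8% to 34.6% by total UMIs and 4.35% to 20.4% per nucleus. By total UMIs the sign turned for Cacng8 in granule nuclei (-0.10) and Cacna2d1 in CA3 nuclei (-0.045). Per nucleus it turned in granule nuclei for Cacnb2 (-0.12), Cacng7 (-0.077), Cacng8 (-0.23), Cacna1d (-0.048) and Scn3b (-0.068), in CA1 nuclei for Cacna2d1 (-0.054) and Cacna1a (-0.017), in CA3 nuclei for Cacnb2 (-0.023), Cacnb4 (-0.081), Cacna2d1 (-0.20), Cacng7 (-0.036) and Cacng8 (-0.14), and in interneurons for Cacna1e (-0.10), Cacng8 (-0.12) and Scn8a (-0.13).

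With DESeq2's test 3 fell in granule nuclei, 0 fell in CA1, and 12 rose in CA3 nuclei, 10 in interneurons, 4 in oligodendrocytes, 2 in precursors, where 1 fell, 1 in astrocytes and 0 in microglia. With the stricter gate 2 fell in CA1 and 1 in CA3 nuclei, and 3 rose in subicular or cortical excitatory nuclei, 11 in interneurons, 2 in precursors and 1 in astrocytes. With all 6 libraries 2 fell in CA1 nuclei, and without a filter 2 fell in precursors and 2 rose in microglia. Of 121 calls, 118 passed with DESeq2 size factors, 111 with 6 libraries, 107 without a filter, 74 with DESeq2's test, 71 by total UMIs and 22 per nucleus. With the stricter gate 95 passed of the 117 that gave a value. The cause of these changes was not tested.

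With the replicate number as a block, 25 rose in granule nuclei and 7 in astrocytes, and 120 of the 121 calls passed. The numbers give 2 pairs, which the labels do not tie to a shared source, and the correlation of same-numbered deviations was 0.0971 over genes in granule nuclei, so they were not taken as pairing.

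Leaving out 1 library at a time gave 20 to 24 risen and 3 to 5 fallen genes in granule nuclei, 19 to 20 and 0 to 2 in CA1, 15 to 16 and 0 to 1 in CA3, 0 to 9 and 0 to 1 in subicular or cortical excitatory nuclei, 13 to 18 and 0 in interneurons, 6 to 9 and 0 in oligodendrocytes, 3 to 6 and 1 to 3 in precursors, and 1 to 6 and 0 in astrocytes and in microglia. Of the 121 calls 83 to 107 passed. Of the 45 differences between types 26 to 35 did, and 35 by total UMIs and 40 without a filter. The rarer types had as few as 31 nuclei in a library, and whether more nuclei would change their calls was not tested.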
